A study of Mus musculus with 8 samples.

Results

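The mitochondrial carrier family, SLC25, was followed in liver RNA of mice with colitis. Its members were taken as every gene symbol made of Slc25a and a number, together with Ucp1, Ucp2 and Ucp3. Of the 50 mouse genes with such a symbol in RefSeq, 48 had an array row that names that gene alone, out of 22180 genes measured in this way, and each of the 48 had a single such row. The rest were not analysed here. The 8 arrays, Affymetrix Mouse Gene 2.0 ST, came from C57BL/6 mice labelled as female and 6 weeks old, which drank water with 3% dextran sulfate sodium (DSS), a colon irritant, for 7 days. The titles form 2 groups, 4 wild-type and 4 labelled as IL-10 knockout, and both groups carried the DSS treatment. No mice without DSS were part of the comparison, and the labels do not describe the knockout allele. Interleukin-10 dampens immune responses, and the comparison asks how liver transcripts differ by genotype under colitis.

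Carriers of this family are small proteins, nearly all of the mitochondrial inner membrane, that exchange metabolites between the matrix and the cytosol. In liver they serve ATP export, the urea cycle, the malate-aspartate shuttle, fatty acid oxidation, citrate export for lipid synthesis and the delivery of iron for heme. Many substrates have more than 1 carrier gene, and the liver form is often a different gene from the form of muscle, brain or blood cells.

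Some labels need care before the results. Wild-type replicates 1 and 2 and knockout-labelled replicates 1 and 2 carried Y-linked signal although all 8 mice are labelled female; the mean level of the Y-linked genes Kdm5d, Uty and Eif2s3y was 8.20 to 8.52 in these 4 arrays and 4.30 to 4.48 in the other 4, where Xist read 11.68 to 11.82. Each group thus holds 2 arrays of either kind, and values within each kind are given beside some of the results. Il10 itself read 4.97 ± 0.08 in wild-type and 5.97 ± 0.32 in knockout-labelled arrays (log2 level, mean ± SD, n = 4 each), 1.00 higher in the latter on the log2 scale (SE 0.14; limma adjusted p = 0.00851). The position of the mutation relative to this row is unknown here. The row therefore cannot serve as a check on genotype, and directions are given by the labels. No carrier gene measured here lies on the chromosome of Il10. The markers of hepatocytes were present, with Alb and Ttr among 11 measured. Of these Tat rose (0.51; limma adjusted p = 0.0247; up to 0.0758 without 1 array) and 10 did not pass, with Alb at -0.12 and Ttr at -0.16 and the groups of both apart. Their summed level overlapped between groups (log2 16.43 to 16.48 in wild-type, 16.44 to 16.50 in knockout-labelled arrays). Precision is limited by the small number of arrays. The labels do not state that each array is a separate mouse, so p-values measure only the spread between these samples, which may be technical.

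Of the 48 carriers, Slc25a15 alone passed the test over all genes, and it rose; the other 47 did not pass. Values are given in the order of replicates 1 to 4 and are log2 levels from robust multi-array averaging (RMA), differences are knockout-labelled minus wild-type on that scale, and a gene is called at a limma adjusted p below 0.05 over all 22180 genes. The called share of carriers, 2.08%, compares with 3.15% of all genes (1.56% higher and 1.59% lower). At this threshold the carriers were thus not called more often than genes at large, while their shares by the looser criteria below were higher. Whether the shares differ was not tested, and the shares were not matched for level. The mean of 38 of the 48 carriers was above the highest array median, while all genes include those with low values. With the lowest 40% of genes left out, 812 genes were called in place of 699. Below an adjusted p of 0.1 lay 7 carriers (14.6%), 5 higher and 2 lower, against 7.6% of all genes (3.81% higher and 3.79% lower). With the kind of array as a block 2 carriers (4.17%), Slc25a12 and Slc25a15, rose and none fell. In that fit 4.68% of all genes were called (2.13% higher and 2.55% lower). In 12 of 48 carriers (25%) the arrays of 1 group lay wholly above those of the other, 8 higher and 4 lower. Of all genes 12.9% had groups apart (7.2% higher and 5.74% lower). At an unadjusted p below 0.05 there were 17 carriers (35.4%), 9 higher and 8 lower, where 21.2% of all genes passed (11.4% higher and 9.79% lower). The median difference of the carriers was 0.01 and that of all genes 0.03, while the median size regardless of direction was 0.16 for carriers and 0.11 for all genes. When all arrays were given a common median, 21 carriers had a difference above 0 and 27 below, in place of 25 and 23, and the called genes split into 236 higher and 393 lower, in place of 347 and 352.

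**Figure D1:**
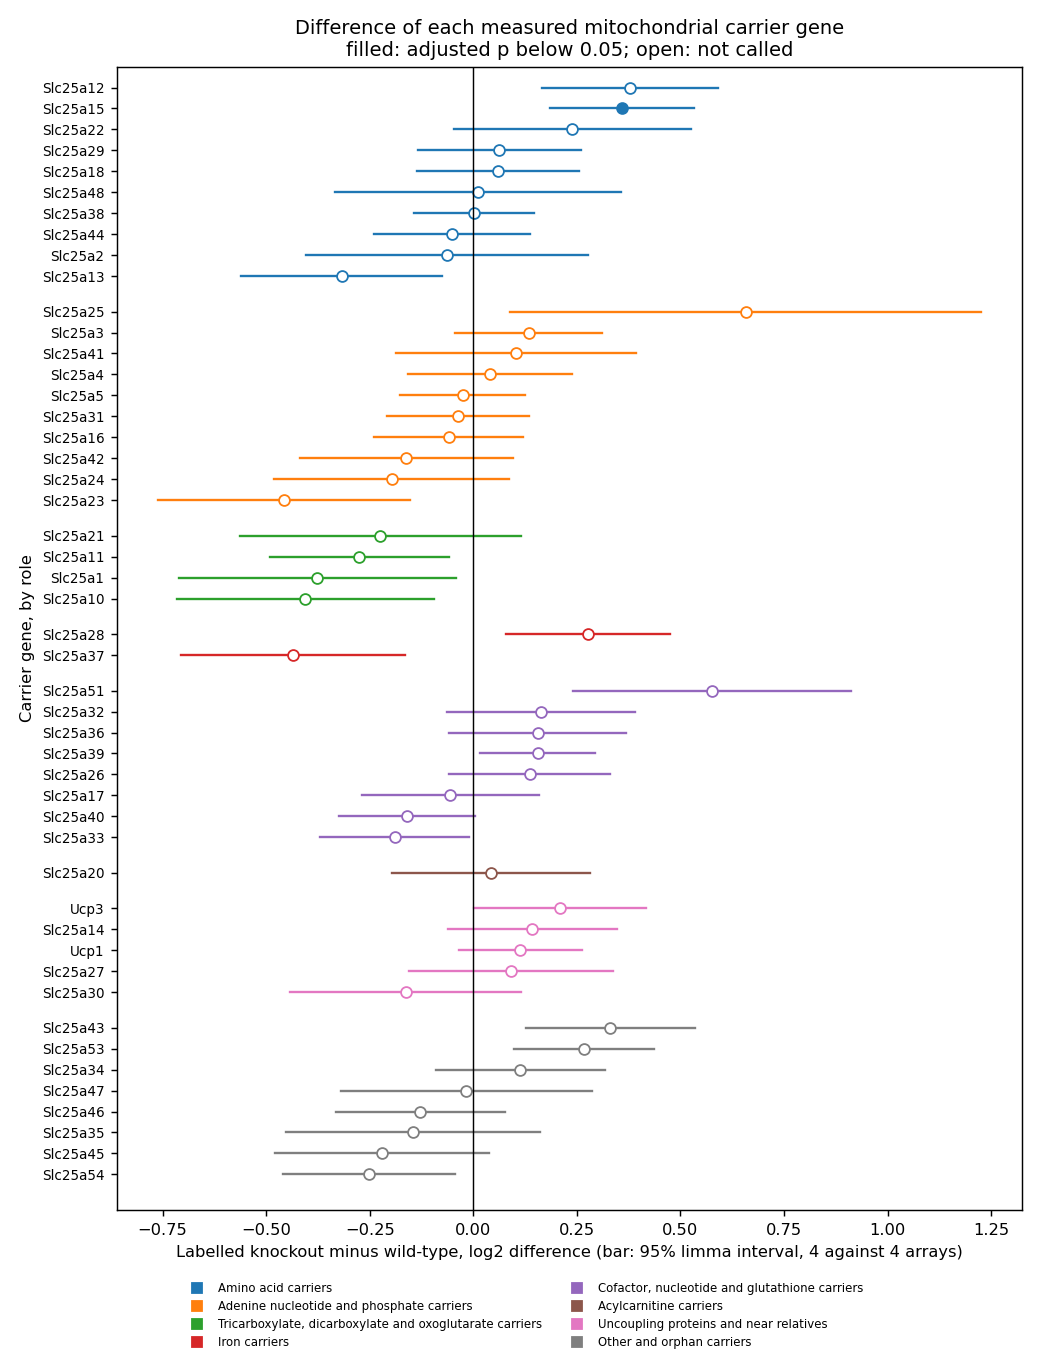
Difference of each of the 48 measured carrier genes (log2, knockout-labelled minus wild-type, 4 against 4 arrays) with its 95% interval from limma, grouped and coloured by role; filled points are called at an adjusted p below 0.05. Slc25a15 is the filled point, at 0.36, and the differences range from -0.46 for Slc25a23 to 0.66 for Slc25a25.

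Among the 10 carriers of amino acids, Slc25a15 rose and the other 9 did not pass. Slc25a15 brings ornithine into mitochondria in exchange for citrulline and so links the matrix and cytosolic steps of the urea cycle. It read 11.03, 10.97, 11.13 and 10.85 in wild-type arrays and 11.38, 11.28, 11.31 and 11.44 in knockout-labelled arrays. Every knockout-labelled array lay above every wild-type array. The difference was 0.36 (SE 0.08; 95% interval 0.18 to 0.53; 1.28-fold; limma adjusted p = 0.0408), 0.39 within the arrays with Xist signal and 0.33 within those with Y-linked signal, with 2 against 2 arrays and no call in either (limma adjusted p = 0.257 and 0.300). The call was lost in each of the 8 fits without 1 array (limma adjusted p from 0.0561 to 0.119) and with a common median per array (difference 0.31; limma adjusted p = 0.0799).

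Slc25a12 and Slc25a13, known as aralar and citrin, export aspartate in exchange for glutamate and drive the malate-aspartate shuttle; citrin is the main form of liver. Their differences had opposite signs. Slc25a12 read 9.46, 9.21, 9.48 and 9.37 in wild-type arrays and 9.60, 9.69, 9.96 and 9.79 in knockout-labelled arrays. All knockout-labelled arrays were above all wild-type arrays, with a difference of 0.38 (SE 0.10; limma adjusted p = 0.0635). Slc25a12 passed with the kind of array as a block (limma adjusted p = 0.0404) and with quantile normalization (limma adjusted p = 0.0440). It also passed without knockout-labelled replicate 1 (limma adjusted p = 0.0430) and without no other single array (limma adjusted p up to 0.155). With a common median, the replicate block and cyclic loess it did not pass (limma adjusted p = 0.0813, 0.0790 and 0.0501). Slc25a13 read 11.16, 11.07, 11.10 and 10.97 in wild-type arrays, and 10.99, 10.81, 10.79 and 10.45 in the knockout-labelled ones. Its groups overlapped by the lowest wild-type and the highest knockout-labelled array, and its difference was -0.32 (SE 0.11; limma adjusted p = 0.135).

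The bases before the start sites of these 3 genes are shown. They were chosen as the urea cycle carrier that was called and the aspartate carriers, not called, whose differences had opposite signs. Each run is the 250 bases upstream of a RefSeq start site, 5′ to 3′ along the gene, and capitals mark matches to a motif on either strand. The motifs searched were CCAAT (the CCAAT box), TATAAA (the TATA box), GGGCGG (bound by Sp1), CACGTG (an E-box), TGACGTCA (bound by CREB) and CCGGAAGT (bound by ETS factors). None of the matches shown overlap.

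Slc25a15 (GRCm38.p6 chr8:22398622-22398871, minus strand): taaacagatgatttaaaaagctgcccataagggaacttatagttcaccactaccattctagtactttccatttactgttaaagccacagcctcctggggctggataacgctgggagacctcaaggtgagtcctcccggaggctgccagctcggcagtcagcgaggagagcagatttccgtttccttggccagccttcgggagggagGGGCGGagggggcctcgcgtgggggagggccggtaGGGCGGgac
Slc25a12 (GRCm38.p6 chr2:71367756-71368005, minus strand): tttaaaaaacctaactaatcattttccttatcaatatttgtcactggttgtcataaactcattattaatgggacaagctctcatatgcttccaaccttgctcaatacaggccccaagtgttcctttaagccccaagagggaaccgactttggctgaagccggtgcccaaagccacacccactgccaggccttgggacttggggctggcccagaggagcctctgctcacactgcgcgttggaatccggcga
Slc25a13 (GRCm38.p6 chr6:6217174-6217423, minus strand): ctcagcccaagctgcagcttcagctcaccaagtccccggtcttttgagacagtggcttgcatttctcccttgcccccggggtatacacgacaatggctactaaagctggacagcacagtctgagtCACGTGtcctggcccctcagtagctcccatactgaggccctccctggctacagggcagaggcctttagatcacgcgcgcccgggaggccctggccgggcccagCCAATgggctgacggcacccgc

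The Slc25a15 window, 1 of 2 start sites in the table, held GGGCGG at 44 and at 9 bases before the start, a motif in 32.74% of 32851 windows of the same length. Slc25a13 held CACGTG at 125 bases and CCAAT at 22 bases before the start, motifs found in 6.02% and 33.85% of all windows. None of the 6 motifs was in the Slc25a12 window. Start sites were listed for 38 of the 48 carriers. CCAAT was in 18 of these carriers, TATAAA in 2, GGGCGG in 25, CACGTG in 7, TGACGTCA in 2 and CCGGAAGT in 1. TATAAA, TGACGTCA and CCGGAAGT were in 12.37%, 1.55% and 2.88% of all windows. A carrier was counted when any of its listed windows held the motif, so these counts and the shares of windows are unlike measures. A match is a description of the letters, and no binding was measured here.

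The other carriers of amino acids differed by less. Slc25a22, which carries glutamate with protons, had a difference of 0.24 (SE 0.13; limma adjusted p = 0.315), with groups that overlapped; it was 0.15 without wild-type replicate 1. Slc25a38, which imports glycine for heme synthesis, read 8.79 ± 0.04 and 8.79 ± 0.07 (SD, n = 4 each), a difference of 0.00 with a 95% interval from -0.14 to 0.15. The remaining 5, Slc25a2, Slc25a18, Slc25a29, Slc25a44 and Slc25a48, lay between -0.06 and 0.06. Slc25a48 was listed with the amino acid carriers, although it is also described as a choline carrier.

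Enzymes that use the same metabolites went both ways. Of 8 measured urea cycle and neighbouring genes none was called by limma; 4 had an unadjusted p below 0.05, 2 higher and 2 lower. Arg1, which makes ornithine, read 0.36 higher (SE 0.09; limma adjusted p = 0.0657) with groups apart, and Asl 0.71 higher (SE 0.21; limma adjusted p = 0.100) with groups that overlapped. The 2 lower genes were Glud1 at -0.32 (limma adjusted p = 0.0723) and Otc at -0.25 (limma adjusted p = 0.120), both with groups apart. Of 12 genes of the malate-aspartate shuttle and of citrate use, Acacb and Me1 fell and 10 did not pass; the list's median was -0.16. Acacb, an acetyl-CoA carboxylase, fell by 0.74 (SE 0.15; limma adjusted p = 0.0348) and Me1, the cytosolic malic enzyme, by 0.73 (SE 0.16; limma adjusted p = 0.0379). Without 1 array, Acacb lost its call for any array but knockout-labelled replicates 1 and 3 (limma adjusted p up to 0.103), and Me1 for any but wild-type replicate 4 and knockout-labelled replicate 1 (up to 0.112). Acaca, Fasn and Acly, further genes of fatty acid synthesis, had -0.71, -0.62 and -0.55 and did not pass. Got1, the cytosolic aminotransferase of the shuttle, read 0.70 higher (SE 0.23; limma adjusted p = 0.120), with its highest value, 12.69, in knockout-labelled replicate 3.

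**Figure D2:**
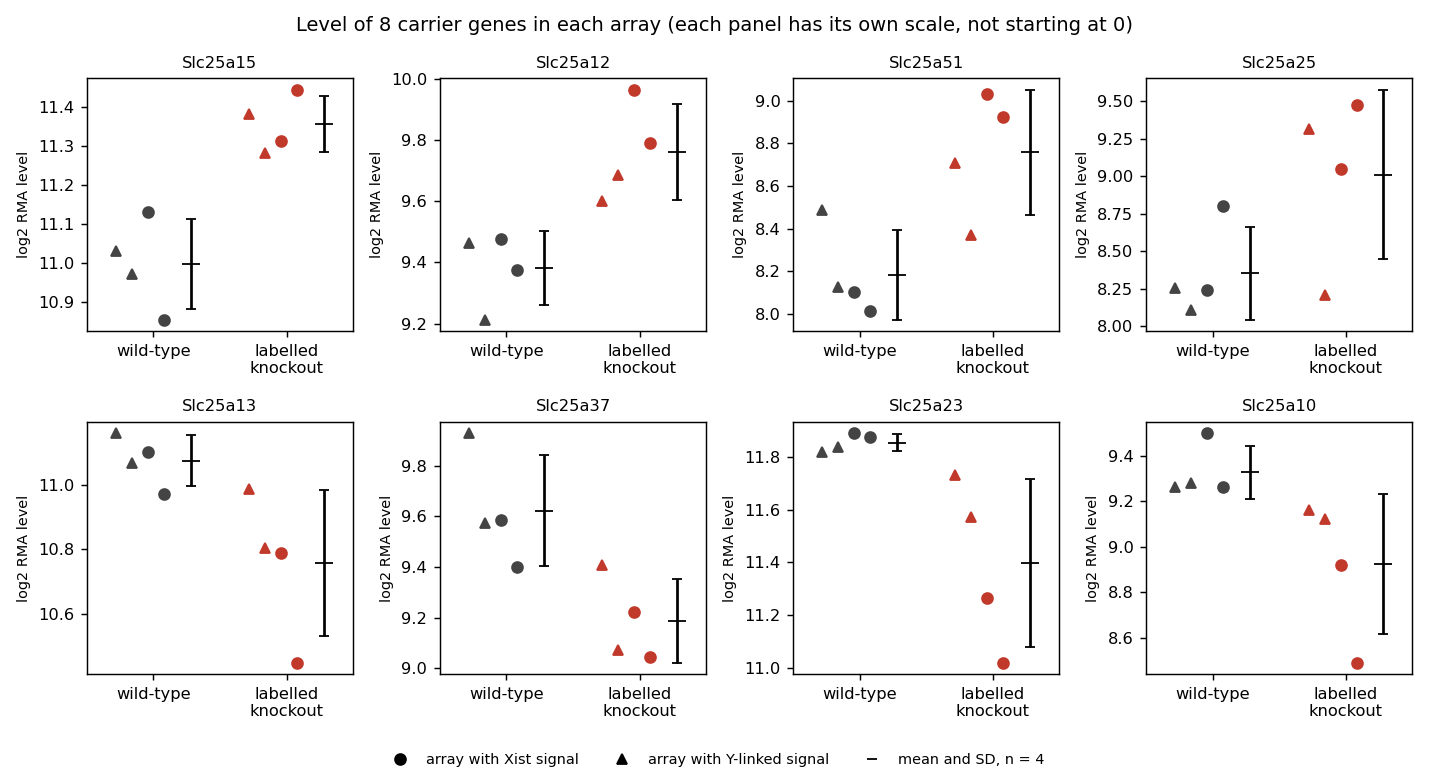
Log2 RMA level of 8 carrier genes in each array, wild-type in grey and knockout-labelled in red, with the mean and SD of each group (n = 4); circles are arrays with Xist signal and triangles arrays with Y-linked signal, and each panel has its own scale. The groups are apart for Slc25a15, Slc25a12, Slc25a23 and Slc25a10 and overlap for Slc25a51, Slc25a25, Slc25a13 and Slc25a37.

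All 4 carriers of tricarboxylates, dicarboxylates and oxoglutarate had differences below 0, and none passed. Slc25a1 exports citrate, the source of cytosolic acetyl-CoA for fatty acids and sterols. It read 11.67, 11.65, 11.55 and 11.58 in wild-type arrays and 11.71, 11.22, 10.87 and 11.14 in knockout-labelled arrays, so that knockout-labelled replicate 1 was the highest of all 8. Its difference was -0.38 (SE 0.15; limma adjusted p = 0.189), and the values without 1 array ran from -0.54 without that replicate (limma adjusted p = 0.0206) to -0.25 without knockout-labelled replicate 3 (limma adjusted p = 0.355). Slc25a10, which exchanges malate and succinate for phosphate, read 9.26, 9.28, 9.50 and 9.26 in wild-type and 9.16, 9.12, 8.92 and 8.49 in knockout-labelled arrays. The groups were apart and the difference was -0.41 (SE 0.14; limma adjusted p = 0.138), or -0.26 without knockout-labelled replicate 4. Slc25a11, the oxoglutarate-malate partner of aralar and citrin in the shuttle, had -0.28 (SE 0.10; limma adjusted p = 0.145), and Slc25a21, for longer oxodicarboxylates, -0.22 (SE 0.15). Within the arrays with Xist signal the values were -0.56 for Slc25a1, -0.68 for Slc25a10, -0.35 for Slc25a11 and -0.42 for Slc25a21, and within those with Y-linked signal -0.19, -0.13, -0.20 and -0.03 in the same order. The test of the difference between the 2 kinds of array did not pass for any carrier (lowest limma interaction adjusted p = 0.521). Only 6 of all genes measured passed it, so the lack of a carrier call says little about the carriers. At an unadjusted limma interaction p below 0.05 there were 4 of the 48 carriers, where 5.48% of all genes passed. Whether these shares differ was not tested.

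The 10 carriers of adenine nucleotides, phosphate and related molecules held both the lowest and the highest difference of the family, and none passed. Both belong to the calcium-regulated carriers that exchange ATP-Mg for phosphate and so set the adenine nucleotide content of the matrix. Slc25a25 read 8.26, 8.11, 8.24 and 8.80 in wild-type and 9.31, 8.21, 9.04 and 9.48 in knockout-labelled arrays. Knockout-labelled replicate 2 lay within the wild-type range, and the other 3 were above it. The difference was 0.66 (SE 0.26; limma adjusted p = 0.178), and the values without 1 array ran from 0.50 without replicate 4 of that group to 0.93 without replicate 2 (limma adjusted p = 0.0322).

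Slc25a23 read 11.82, 11.84, 11.89 and 11.87 in wild-type and 11.73, 11.57, 11.27 and 11.02 in knockout-labelled arrays. The wild-type arrays were close together, and all knockout-labelled arrays were lower by amounts that differed among them. Its difference was -0.46 (SE 0.14; limma adjusted p = 0.0979), and the values without 1 array ran from -0.57 without knockout-labelled replicate 1 (limma adjusted p = 0.0331) to -0.33 without replicate 4 of that group (limma adjusted p = 0.187). It was -0.74 within the arrays with Xist signal and -0.17 within those with Y-linked signal. Slc25a24 and Slc25a41 of the same subgroup had -0.20 and 0.10, and Slc25a41 changed sign between the arrays with Xist signal (0.45) and with Y-linked signal (-0.25). Slc25a42, which carries coenzyme A, had -0.16 (SE 0.12; limma adjusted p = 0.446), or -0.08 without knockout-labelled replicate 3.

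The carriers that serve ATP synthase directly differed little. Slc25a5, an ADP/ATP exchanger, read 12.27 ± 0.07 and 12.24 ± 0.06 (SD, n = 4 each), a difference of -0.03 with a 95% interval from -0.18 to 0.12. Slc25a4, the exchanger of heart and muscle, had 0.04 (95% interval -0.16 to 0.24), a sign that turned with a common median, quantile normalization and cyclic loess. Slc25a3, which imports phosphate, read 10.70, 10.66, 10.69 and 10.68 in wild-type and 10.77, 10.70, 11.02 and 10.77 in knockout-labelled arrays, with groups narrowly apart and a difference of 0.13 (SE 0.08; limma adjusted p = 0.359) that was 0.07 without knockout-labelled replicate 3. Of 15 measured genes of ATP synthase and its inhibitor, Atp5c1 and Atp5k fell by 0.30 and 0.48 (limma adjusted p = 0.0415 and 0.0493) and 13 did not pass; the median of this list was -0.05. Each call depended on 7 of the 8 arrays, all but knockout-labelled replicate 1 (limma adjusted p up to 0.120 and 0.135). Atp5c1 also missed the threshold with a trended and robust eBayes fit of all arrays (limma adjusted p = 0.0513). With the replicate block neither Atp5c1 nor Atp5k passed (limma adjusted p = 0.0855 and 0.0962).

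The mitoferrins, which bring iron into mitochondria for heme and iron-sulfur clusters, had differences of opposite sign, and neither passed. Slc25a37, mitoferrin-1, is best known from red cell precursors and read 9.93, 9.57, 9.59 and 9.40 in wild-type and 9.41, 9.07, 9.22 and 9.05 in knockout-labelled arrays. The lowest wild-type and the highest knockout-labelled array overlapped by 0.01, and the difference was -0.43 (SE 0.12; limma adjusted p = 0.0822). Without knockout-labelled replicate 1 it passed (-0.51, limma adjusted p = 0.0495), and without any other single array it did not (limma adjusted p up to 0.199). Slc25a28, mitoferrin-2, which is expressed widely, read 9.27, 9.12, 9.19 and 9.15 in wild-type and 9.50, 9.36, 9.67 and 9.31 in knockout-labelled arrays. All knockout-labelled arrays were above all wild-type arrays, with a difference of 0.28 (SE 0.09; limma adjusted p = 0.120).

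Markers of red cells are given beside Slc25a37. Of 9 measured erythroid markers, 7 had differences below 0, 2 had differences above 0 (Hemgn 0.15 and Klf1 0.18), and 2 were called lower, Car1 (-0.95; limma adjusted p = 0.0230) and Tspan33 (-0.52; limma adjusted p = 0.0437). The Car1 call ended when wild-type replicate 2 or 3 or knockout-labelled replicate 4 was left out (limma adjusted p up to 0.0669). The Tspan33 call ended when any of wild-type replicates 1 to 3 or of knockout-labelled replicates 3 and 4 was left out (up to 0.127). By the median deviation of the 9 markers, knockout-labelled replicate 4 was the highest of its group (0.0028), where Slc25a37 was lowest. Wild-type replicates 1 and 4 had the highest and the lowest deviation of their group (0.1643 and -0.1628), as they had for Slc25a37. The summed marker level was log2 9.85 to 10.47 in wild-type and 9.65 to 9.82 in knockout-labelled arrays, with groups apart. The part of red cells in the Slc25a37 value was not tested. In RNA of whole liver, fewer cells of a type and less RNA per cell cannot be told apart. Of 11 measured genes of iron and heme use, not all of them mitochondrial, Steap3, an iron reductase, fell by 0.59 (SE 0.12; limma adjusted p = 0.0287) and 10 did not pass, with a list median of -0.23. Differences were below 0 for 9 of the list and above 0 for 2. Alas1, 1 of these 2, read 0.48 higher (limma adjusted p = 0.0765) with groups apart. The Steap3 call ended when any of wild-type replicates 1 to 3 or knockout-labelled replicate 4 was left out (limma adjusted p up to 0.0924).

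None of the 8 carriers of cofactors, nucleotides and glutathione passed. Slc25a51 imports NAD into mitochondria. It read 8.49, 8.12, 8.10 and 8.01 in wild-type and 8.71, 8.37, 9.03 and 8.92 in knockout-labelled arrays. Knockout-labelled replicate 2 lay below wild-type replicate 1, and the other 3 knockout-labelled arrays were above all wild-type arrays. The difference was 0.58 (SE 0.15; limma adjusted p = 0.0704). It was 0.92 within the arrays with Xist signal, where it passed (limma adjusted p = 0.0225), and 0.23 within those with Y-linked signal (limma adjusted p = 0.710); the difference between them did not pass (limma interaction adjusted p = 0.823). Without knockout-labelled replicate 2 Slc25a51 passed as well (0.71, limma adjusted p = 0.0309), and without any other single array it did not (limma adjusted p up to 0.173).

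Slc25a39 and Slc25a40 import glutathione. Slc25a39 read 11.91, 11.93, 11.93 and 11.89 in wild-type and 12.12, 12.07, 11.99 and 12.09 in knockout-labelled arrays, apart by a small step, with a difference of 0.16 (SE 0.06; limma adjusted p = 0.190). Slc25a40 had -0.16 (SE 0.07; limma adjusted p = 0.245). The remaining 5 lay between -0.19 for Slc25a33, a pyrimidine nucleotide carrier whose groups were apart, and 0.16 for Slc25a32, which carries folate or FAD.

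Slc25a20, the exchanger of acylcarnitines for carnitine in fatty acid oxidation, read 9.92, 9.97, 10.08 and 9.74 in wild-type and 10.06, 10.02, 9.70 and 10.11 in knockout-labelled arrays. The groups overlapped throughout, with a difference of 0.04 (95% interval -0.20 to 0.28), and its sign turned with a common median. Among 10 measured genes of acylcarnitine handling and beta-oxidation, Crat rose and 9 did not pass. Crat, carnitine acetyltransferase, rose by 0.57 (SE 0.09; limma adjusted p = 0.0144), a call lost without knockout-labelled replicate 4 (limma adjusted p = 0.0513), and by 0.38 as the mean of its rows. Of 12 regulators of mitochondrial and carrier genes, Ppara, a receptor that drives fatty acid oxidation genes, fell by 0.81 (SE 0.18; limma adjusted p = 0.0401) and 11 did not pass. It was -1.22 within the arrays with Xist signal (limma adjusted p = 0.0106) and -0.40 within those with Y-linked signal (limma adjusted p = 0.358). Ppara kept its call without knockout-labelled replicate 1 and lost it without any other array (limma adjusted p up to 0.117).

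None of the 5 uncoupling proteins and near relatives measured passed. Uncoupling proteins let protons return to the matrix without ATP synthesis. Ucp1, the heat-producing form of brown fat, read 4.40 to 4.56 in wild-type and 4.50 to 4.61 in knockout-labelled arrays, below the array medians of 6.09 to 6.22. Ucp3, the form of muscle, read 5.26, 5.23, 5.33 and 5.29 in wild-type and 5.51, 5.35, 5.74 and 5.34 in knockout-labelled arrays, a difference of 0.21 (SE 0.09; limma adjusted p = 0.233). Whether such low rows read transcript at all is not known, as the table holds no detection calls. Of 9 measured adipocyte and 8 muscle markers none was called by limma (2 and 0 at an unadjusted p below 0.05).

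None of the 8 other and orphan carriers passed. Slc25a47, a carrier expressed mainly in liver, read 11.75 ± 0.17 and 11.74 ± 0.27 (SD, n = 4 each), a difference of -0.02 (95% interval -0.32 to 0.29). Slc25a43 read 5.22, 5.34, 5.54 and 5.49 in wild-type and 5.87, 5.63, 5.78 and 5.64 in knockout-labelled arrays, groups apart, with a difference of 0.33 (SE 0.09; limma adjusted p = 0.0814) at a level below the array medians. In all, 9 of the 48 carriers had a mean below the lowest array median and 38 a mean above the highest. The other 6 of this group lay between -0.25 for Slc25a54 and 0.27 for Slc25a53.

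Carriers that share a substrate could be compared within each array as a ratio. Such a ratio does not change when all log2 values of an array are shifted by the same amount. Scalings that depend on level, such as quantile normalization and cyclic loess, can change it. The pairs were chosen with the values known, so their ratios are described without a test or a count. Relative to the wild-type mean, the log2 ratio of Slc25a12 to Slc25a13 was 0.31, 0.57, 0.87 and 1.04 in the knockout-labelled arrays, where wild-type arrays lay between -0.16 and 0.10. For Slc25a28 over Slc25a37 the knockout-labelled values were 0.53, 0.72, 0.89 and 0.70, and the wild-type values lay between -0.22 and 0.19. Both ratios were thus higher in every knockout-labelled array. Slc25a39 over Slc25a40 shifted by 0.32 and Slc25a33 over Slc25a36 by -0.35, also with groups apart. Slc25a23 over Slc25a25 had the lowest mean, -1.11, but knockout-labelled replicate 2, at -0.14, overlapped the wild-type arrays. For Slc25a4 over Slc25a5 the shift was 0.07 and the groups overlapped.

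**Figure D3:**
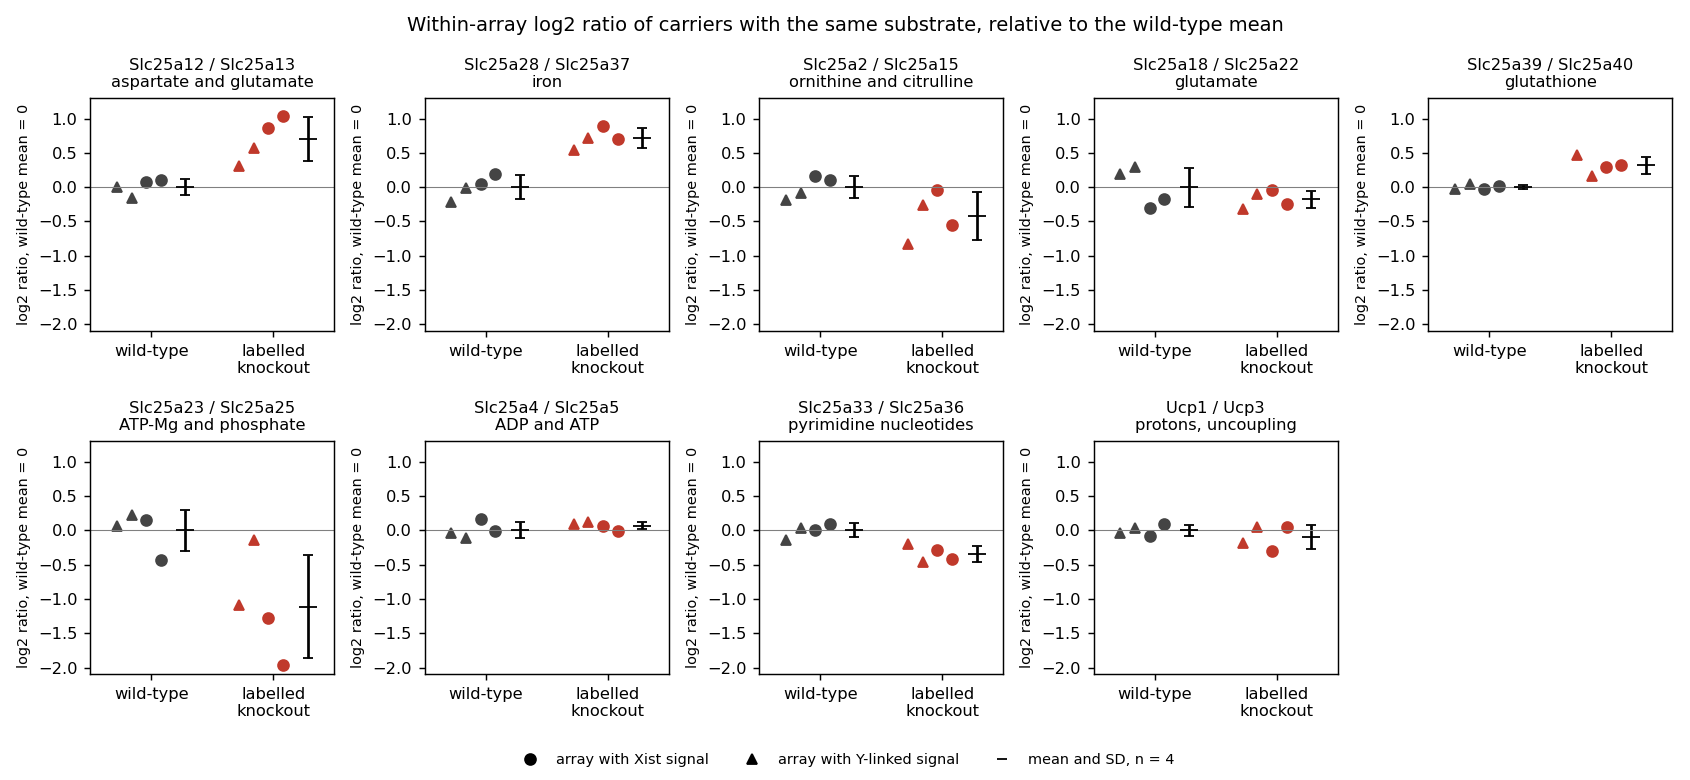
Within-array log2 ratio of carriers with the same substrate, set to a wild-type mean of 0, in wild-type (grey) and knockout-labelled (red) arrays with mean and SD (n = 4); circles are arrays with Xist signal and triangles arrays with Y-linked signal. The knockout-labelled arrays lie above all wild-type arrays for Slc25a12 over Slc25a13, Slc25a28 over Slc25a37 and Slc25a39 over Slc25a40, and below them for Slc25a33 over Slc25a36; pairs with Slc25a24 are not drawn.

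Among 19 measured genes of other mitochondrial transport, Mcu fell and 18 did not pass. Mcu, the pore of the mitochondrial calcium uniporter, read 9.27, 9.12, 9.55 and 9.25 in wild-type and 8.72, 8.73, 8.65 and 8.72 in knockout-labelled arrays. The groups did not overlap, and the wild-type arrays were spread more widely than the knockout-labelled ones, with a difference of -0.59 (SE 0.09; limma adjusted p = 0.0130), and the call held without any single array (limma adjusted p up to 0.0428). Within the arrays with Xist signal and those with Y-linked signal it was -0.71 and -0.47, called in neither (limma adjusted p = 0.0779 and 0.154).

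The carrier differences had the same sign in both kinds of array for 38 of 48 genes and the other sign for 10. Markers of some immune cells and of matrix cells also differed between the groups. Of 12 macrophage and Kupffer cell markers 5 were called higher, with a summed level of log2 13.16 to 13.45 in wild-type and 13.73 to 14.03 in knockout-labelled arrays. Of 12 neutrophil markers 8 were called higher and 1 lower, with sums of log2 10.34 to 10.67 and 10.95 to 11.74. Of 12 T and NK cell markers 2 were called higher, with sums of log2 9.81 to 10.21 and 10.26 to 10.42. Of 9 measured B and plasma cell markers none was called, and their sums, log2 11.90 to 12.16 and 12.15 to 12.43, overlapped. Of 10 stellate and matrix markers 2 were called lower and 9 had differences below 0, with sums of log2 12.55 to 12.85 and 11.88 to 12.67. The sums of the macrophage, neutrophil and T and NK cell lists had groups apart, as had the erythroid sum given above, which was lower. The part of these cells in any carrier value was not tested.

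**Figure D4:**
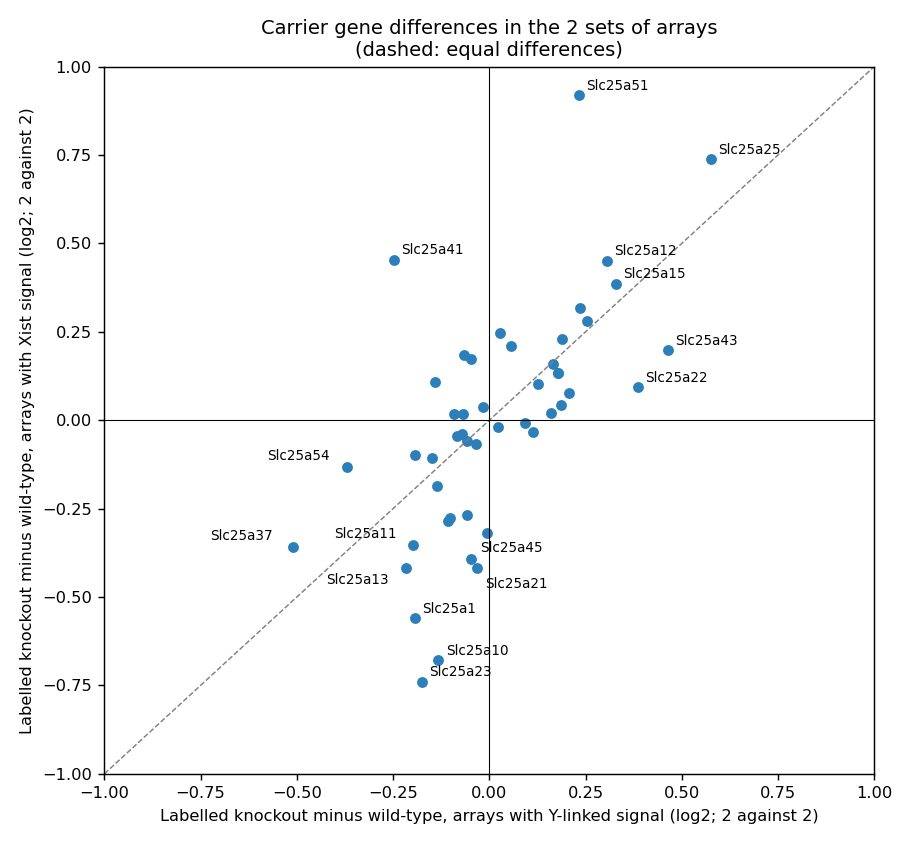
Difference of each of the 48 carrier genes (log2, knockout-labelled minus wild-type) within the arrays with Y-linked signal (x axis) and within those with Xist signal (y axis), 2 against 2 arrays each; the dashed line marks equal differences. Slc25a51 lies at 0.23 and 0.92, Slc25a23 at -0.17 and -0.74, and Slc25a15 near the line at 0.33 and 0.39.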

How the data were processed

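The authors deposited log2 values made by robust multi-array averaging (RMA) with R 3.0.1 (versions per the submitters' processing notes). How probes were summarised into rows beyond this is not stated in the labels. The table holds 41345 rows between 2.49 and 13.8. Rows were named through the platform annotation: 23521 name 1 gene, 1814 several and 16010 none. A gene with several rows was taken from the 1 with the highest mean of the 8 arrays. All 48 carriers matched RefSeq (GRCm38.p6) by gene number and symbol, and promoter sequences and chromosomes come from that assembly.

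Genes were compared with limma 3.58.1 in R 4.3.3 (lmFit and eBayes without trend, all 8 arrays, no covariates, no filter on low values), with Benjamini-Hochberg adjustment over 22180 genes; every adjusted p is from this tool. Intervals use limma's moderated SE and degrees of freedom. The root mean square difference of the closest arrays was 0.26 (log2), and none repeats another. Figures were drawn with matplotlib 3.10.9.

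The carriers and gene lists were chosen with earlier results of these data known. Named in full were called carriers, the 6 with the highest mean, the 5 largest differences in each direction, a fixed set of well-studied carriers, and up to 4 called genes of each pathway list. Genes outside this rule were named after their values were seen. Alternatives were a filter on low genes, the mean of a gene's rows, common median, quantile and cyclic loess scaling, trend and robust eBayes, array weights, blocks for replicate number and for the kind of array (Xist or Y-linked signal), each kind of array alone, each array left out, and other thresholds; the interaction test was added after seeing the data.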

Additional observations from a re-analysis of the deposited data

Results flagged for a closer look

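In 2 of the 96 groups of 4 arrays checked (48 carriers in each genotype), 1 array stood far from the rest by Dixon's test; chance alone would do so in about 1 in 20 groups. Slc25a10 read 9.50 in wild-type replicate 3, where the other wild-type arrays read 9.26 to 9.28. Slc25a14, a relative of the uncoupling proteins, read 6.20 in knockout-labelled replicate 1, where the other 3 lay at 5.97 to 5.98.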

How the results depend on the processing

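Of 434 values of the 23 carriers named by rule under the alternatives, 388 kept their direction and their side of the threshold. All of these carriers but Slc25a15 were not called as reported, so this count says little about calls. The 12 values that lost a call were all of Slc25a15. They came with a common median, the replicate block, each kind of array alone and each array left out. Signs turned for 5 carriers with differences near 0. Slc25a47 turned with quantile normalization (0.0314), cyclic loess (0.0144) and the arrays with Xist signal (0.11), Slc25a4 with a common median (-0.0121), quantile normalization (-0.0144), cyclic loess (-0.0255) and the arrays with Xist signal (-0.0337), and Slc25a20 with a common median (-0.0095) and the arrays with Xist signal (-0.0074). Slc25a38 turned with a common median (-0.0513), array weights (-0.0032) and the arrays with Xist signal (-0.0198), and Slc25a5 with the last alone (0.0176). Without 1 array, the range for Slc25a47 was -0.0999 to 0.0824, for Slc25a4 -0.0145 to 0.1112, for Slc25a20 -0.0199 to 0.1342 and for Slc25a38 -0.0226 to 0.0306. The count of carriers called higher, 1 as reported, was 0 with a common median, the replicate block, the arrays with Y-linked signal or a 1.5-fold minimum, 2 with quantile normalization or the kind of array as a block, 5 at an adjusted p below 0.1, and 0 to 2 without 1 array. In the arrays with Xist signal it was also 1, but Slc25a51 in place of Slc25a15. Called lower were 0 as reported, 1 with the replicate block, 2 at an adjusted p below 0.1, and 0 to 3 without 1 array. Of all genes 699 were called, and 317 and 171 in the arrays with Xist and with Y-linked signal, 377 with a 1.5-fold minimum, 1685 at an adjusted p below 0.1. Without wild-type replicates 1 to 4 the count was 207, 237, 238 and 410, and without knockout-labelled replicate 4 it was 207, against up to 1040 without knockout-labelled replicate 1. Called genes split into 347 higher and 352 lower, and into 236 and 393 with a common median. The causes were not tested.

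The groups have the same replicate numbers, which the labels link to no litter or batch, and arrays of 1 number did not deviate together throughout (correlations 0.27, 0.04, -0.10 and 0.29 for numbers 1 to 4), nor did every array correlate best with its own number. With the replicate block 497 genes were called, Slc25a37 among them (-0.43; limma adjusted p = 0.0393), and Slc25a15 was not (limma adjusted p = 0.0942). Me1, Tat, Ppara, Tspan33, Atp5c1 and Atp5k also lost their calls in that fit (limma adjusted p from 0.0517 to 0.0962). Mcu, Acacb, Crat, Steap3 and Car1 kept theirs. Signal over background cannot be judged, since no detection call comes with the values.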
